A study of Homo sapiens with 2 samples.

Results

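Serine and one-carbon metabolism is described here through 9 genes, chosen by symbol from the 52402 gene symbols of a comparison of 2 RNA sequencing libraries. They are the serine synthesis genes PHGDH, PSAT1 and PSPH, the serine hydroxymethyltransferase genes SHMT1 and SHMT2, and the folate interconversion genes MTHFD1, MTHFD2, MTHFD1L and ALDH1L2. All 9 had counts in both libraries, and 8 reached the minimum level set for comparison, a mean of at least 1 count per 1000000 (CPM) over both libraries. The exception was ALDH1L2. The study asked how loss of the envelope gene of the endogenous retrovirus HERV-R bears on the tumorigenic properties of colorectal cancer cells. Both libraries came from DLD1, an established human colorectal adenocarcinoma line. The 1 library labelled HERV-R knockout held 16406308 counts, and the 1 control library (genotype WT) held 21881122. Both carry the same treatment text, in which a Cas9 vector and a guide RNA vector were transfected and colonies were selected with hygromycin. The sources used here do not say whether the control received the same vectors, or whether either library is from a single colony.

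Cells make serine from a glycolytic intermediate. PHGDH oxidises phosphoglycerate, PSAT1 transfers an amino group to the product, and PSPH removes the phosphate. SHMT enzymes then split serine into glycine and a carbon unit carried on tetrahydrofolate, SHMT1 in the cytosol and SHMT2 in mitochondria. In mitochondria MTHFD2 oxidises this unit, MTHFD1L releases it as formate and ALDH1L2 oxidises it to carbon dioxide while making NADPH. MTHFD1 takes up formate in the cytosol, where the units feed purine, thymidylate and methionine synthesis. Proliferating tumour cells commonly run the mitochondrial branch to supply the cytosolic one, and in human cells ATF4, a stress-induced transcription factor, is known to activate several of these genes.

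Because each group is a single library, replicate spread could not be estimated and no test was made. Differences of culture, colony and library preparation cannot be told apart from the genotype. The ratios below divide the CPM of the knockout-labelled library by that of the control, with exact 95% intervals that cover counting error only. ERV3-1, taken as the targeted gene because it encodes the HERV-R envelope, showed no reduction on its own count row in the library labelled knockout. The gene had 125 counts (7.62 CPM) in that library and 127 counts (5.80 CPM) in the control, a ratio of 1.31 (1.02 to 1.69). It overlaps ERV3-1-ZNF117, with 174 counts in the knockout-labelled library and 220 in the control, a ratio of 1.05 (0.860 to 1.29). It also overlaps ZNF117, with 46 counts in the knockout-labelled library and 0 in the control. How reads of this locus were divided among these rows is not known, which limits this check of the label. An edit that leaves the transcript in place is not seen by such a count, and all directions given here depend on the label being right. Of 10 markers of colon epithelium, 8 reached the minimum. EPCAM had 749.8 CPM in the knockout-labelled library and 700.6 CPM in the control, KRT20 had 0 counts in both, and LGALS4 had 8 counts in each. The symbols KRT20 and LGALS4 stand on 2 rows each, which makes these values less certain, as described for SHMT1. In the knockout-labelled library CDX2 was above the control by over 2-fold, and KRT8 and KRT18 were below it by over 2-fold. Of 16 markers of fibroblasts, blood and endothelium 1 reached the minimum, PDGFRB, at 2.32 CPM in the knockout-labelled library and 4.66 CPM in the control.

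No member that could be compared differed 2-fold between the libraries, and the members did not move together. Such a difference was uncommon among all 12644 compared genes, with 6.78% above the control and 5.69% below it by that much. The lack of such a member therefore does not set the 8 apart from other genes. Among the 8 compared members, MTHFD2 was the furthest below the control. PSPH and MTHFD1 were the furthest above it, and PHGDH, PSAT1, SHMT2 and MTHFD1L lay nearer to a ratio of 1. In these bulk libraries a different share of cells with a transcript and a different amount per cell cannot be told apart.

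The promoters of the 3 MTHFD genes are shown because these genes, the compared ones of the folate group, did not share a direction. MTHFD2 was lower in the knockout-labelled library, MTHFD1L was near 1 and MTHFD1 was higher. Each window runs from 250 bases before to 50 bases after an annotated start, on the plus strand of GRCh38.p14, as RefSeq gives it. The table held a window for 6 of the 9 members, with 4 for MTHFD1L, of which the first listed is printed. Capitals mark matches on either strand to TGATGNAA, the core of the element bound by C/EBP-ATF dimers such as those of ATF4, and to CACGTG, the E-box bound by MYC and related factors. The 2 motifs did not overlap in these windows.
MTHFD2, chr2:74198365-74198664: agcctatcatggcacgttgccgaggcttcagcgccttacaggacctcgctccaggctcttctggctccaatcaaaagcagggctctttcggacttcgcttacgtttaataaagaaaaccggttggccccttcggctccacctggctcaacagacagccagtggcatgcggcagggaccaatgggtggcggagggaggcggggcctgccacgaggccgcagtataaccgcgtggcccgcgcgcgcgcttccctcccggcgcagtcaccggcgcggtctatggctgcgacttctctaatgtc
MTHFD1, chr14:64388103-64388402: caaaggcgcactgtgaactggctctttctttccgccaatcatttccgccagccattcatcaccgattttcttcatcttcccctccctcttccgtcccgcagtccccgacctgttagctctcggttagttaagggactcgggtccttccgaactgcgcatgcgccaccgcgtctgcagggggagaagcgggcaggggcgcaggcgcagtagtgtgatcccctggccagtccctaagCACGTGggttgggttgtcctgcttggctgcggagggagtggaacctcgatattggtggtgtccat
MTHFD1L, chr6:150866236-150866535: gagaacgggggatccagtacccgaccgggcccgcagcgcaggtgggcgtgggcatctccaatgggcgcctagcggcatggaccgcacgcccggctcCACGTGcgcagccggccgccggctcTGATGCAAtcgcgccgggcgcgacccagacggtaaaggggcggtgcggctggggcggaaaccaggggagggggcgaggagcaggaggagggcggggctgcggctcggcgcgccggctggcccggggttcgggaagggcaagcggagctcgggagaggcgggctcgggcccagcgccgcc

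The MTHFD2 window held neither motif, the MTHFD1 window held 1 CACGTG that begins 15 bases before the start, and the MTHFD1L window held 1 of each. The windows of PHGDH, PSAT1 and SHMT1 held neither. Of the MTHFD1L windows, 3 overlap and share these matches and the other holds none. Among all 35116 windows in the table, 3.62% held TGATGNAA and 7.26% held CACGTG. A match says nothing of binding in these cells, and no binding was measured.

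Among the serine synthesis genes, the ratio was highest for the last step. PHGDH, the first enzyme of the pathway, had 13437 counts (819 CPM) in the knockout-labelled library and 19910 counts (909.9 CPM) in the control, a ratio of 0.900 (0.881 to 0.920). PSAT1, the aminotransferase of the middle step, had 8685 counts (529 CPM) in the knockout-labelled library and 9671 (442 CPM) in the control, a ratio of 1.20 (1.16 to 1.23). The phosphatase gene PSPH had 3638 counts (222 CPM) in the knockout-labelled library and 2575 (118 CPM) in the control, a ratio of 1.88 (1.79 to 1.98). So PHGDH was slightly below the control, PSAT1 slightly above it and PSPH close to, but under, the 2-fold line. Relative to PHGDH, the fold of PSPH was 2.09 times as large (1.98 to 2.21) and that of PSAT1 1.33 times (1.28 to 1.38). Relative to PSAT1, the fold of PSPH was 1.57 times as large (1.48 to 1.67). Such a ratio of folds needs neither library totals nor gene lengths, so no choice of scaling alters it.

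PSPH has a transcribed copy, PSPHP1, to which reads of PSPH can be assigned. PSPHP1 had 237 counts in the knockout-labelled library and 346 in the control, a ratio of 0.914 (0.771 to 1.08). It did not share the direction of PSPH, and with both rows summed the fold relative to PHGDH was 1.97 and relative to PSAT1 1.48. The other 13 pseudogene rows of the members held 0 counts in both libraries, apart from MTHFD1P1 with 2 counts in the control.

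**Figure D1:**
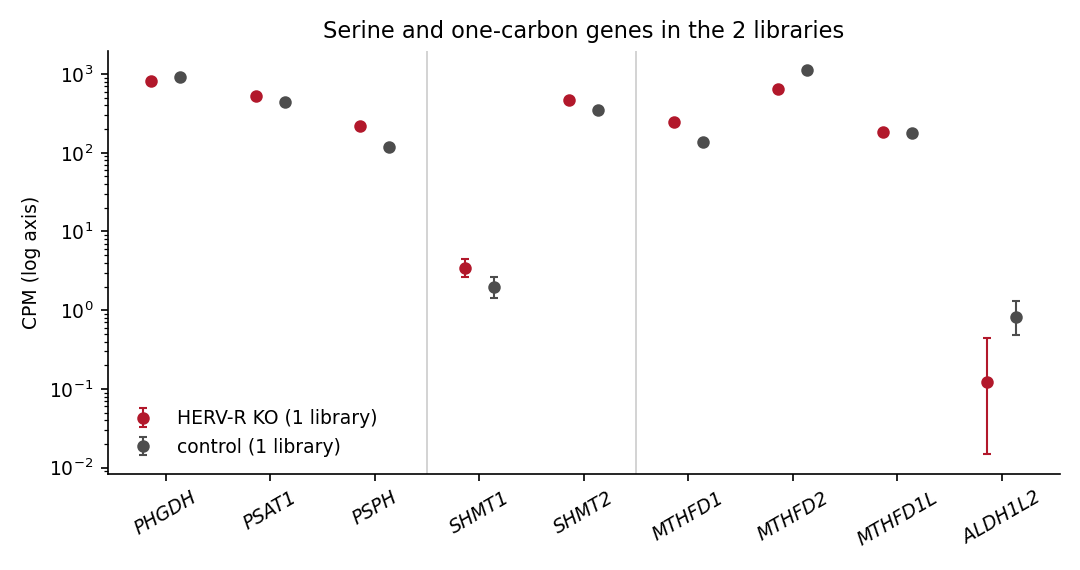
CPM of the 9 genes on a log axis in the knockout-labelled library (red, left of each pair) and the control (grey, right), 1 library each, with exact 95% Poisson intervals of the counts. Grey lines part serine synthesis, serine hydroxymethyltransferases and folate interconversion; SHMT1 and ALDH1L2 lie far below the other 7 genes in both libraries, and MTHFD2 has 650 CPM in the knockout-labelled library against 1113 CPM in the control.

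Of the serine hydroxymethyltransferases, the mitochondrial gene carried nearly all the counts. SHMT2 had 7777 counts (474 CPM) in the knockout-labelled library and 7645 (349 CPM) in the control, a ratio of 1.36 (1.31 to 1.40). SHMT1, its cytosolic counterpart, had 57 counts (3.47 CPM) in the knockout-labelled library and 43 (1.97 CPM) in the control, a ratio of 1.77 (1.17 to 2.69). Both were above the control, and the fold of SHMT1 relative to that of SHMT2 was 1.30 with an interval from 0.861 to 1.99, so at this depth the 2 folds could not be told apart.

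The level of SHMT1 is uncertain for another reason. Its symbol stands on 2 rows of the count tables, with all counts on 1 row, whereas each other member has a single row. Of 955 protein-coding symbols on more than 1 row, 531 (55.6%) had 0 counts in both libraries, against 3841 of 17426 (22.0%) on a single row. SMCR8, which overlaps SHMT1 on chromosome 17, and TOP3A beside it are also on 2 rows, with 1 and 18 counts in the knockout-labelled library and 0 and 2 in the control. Other symbols on 2 rows were well covered. The purine synthesis gene GART had 4044 counts in the knockout-labelled library and 4430 in the control. The glycolysis gene GPI had 8652 counts in the knockout-labelled library and 7844 in the control. Whether reads of SHMT1 were lost between copies was not tested.

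Among the folate interconversion genes, the mitochondrial dehydrogenase and the cytosolic enzyme went opposite ways. MTHFD2, the mitochondrial dehydrogenase and cyclohydrolase that is low in most adult tissues and high in tumours, had 10672 counts (650 CPM) in the knockout-labelled library and 24343 (1113 CPM) in the control. Its ratio was 0.585 (0.571 to 0.598). MTHFD1, the trifunctional cytosolic enzyme, had 4086 counts (249 CPM) in the knockout-labelled library and 3039 (139 CPM) in the control, a ratio of 1.79 (1.71 to 1.88). MTHFD1L, the mitochondrial formate-releasing synthetase, had 3045 counts (186 CPM) in the knockout-labelled library and 3899 (178 CPM) in the control, a ratio of 1.04 (0.993 to 1.09). MTHFD2 was thus clearly lower and MTHFD1 clearly higher than counting error allows, while the interval of MTHFD1L included 1.

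The fold of MTHFD2 was 0.326 times that of MTHFD1 (0.309 to 0.344), the furthest from 1 among the pairs of well-covered members set side by side. It was 0.561 times that of MTHFD1L (0.532 to 0.592) and 0.431 times that of SHMT2 (0.414 to 0.448), so MTHFD2 also stood apart from the mitochondrial genes that act before and after it. The fold of MTHFD1L was 0.581 times that of MTHFD1 (0.543 to 0.621). PSPH and MTHFD1, the 2 well-covered members with the highest ratios, did not differ in fold beyond counting error (1.05; 0.980 to 1.13). The fold of PHGDH was 0.663 times that of SHMT2 (0.638 to 0.690), and that of MTHFD1 was 1.01 times that of SHMT1 (0.664 to 1.54). In all, 12 pairs were compared.

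ALDH1L2, the mitochondrial formyl-folate dehydrogenase, was barely detected. It had 2 counts (0.122 CPM) in the knockout-labelled library and 18 (0.823 CPM) in the control, a ratio of 0.148 (0.0167 to 0.619). Its mean level of 0.472 CPM was below the minimum, so it is not counted among the compared members. The fold relative to MTHFD2 was 0.253 with an interval from 0.0285 to 1.06, which includes 1. Its cytosolic counterpart ALDH1L1 was better covered, at 26.2 CPM in the knockout-labelled library and 27.6 CPM in the control.

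**Figure D2:**
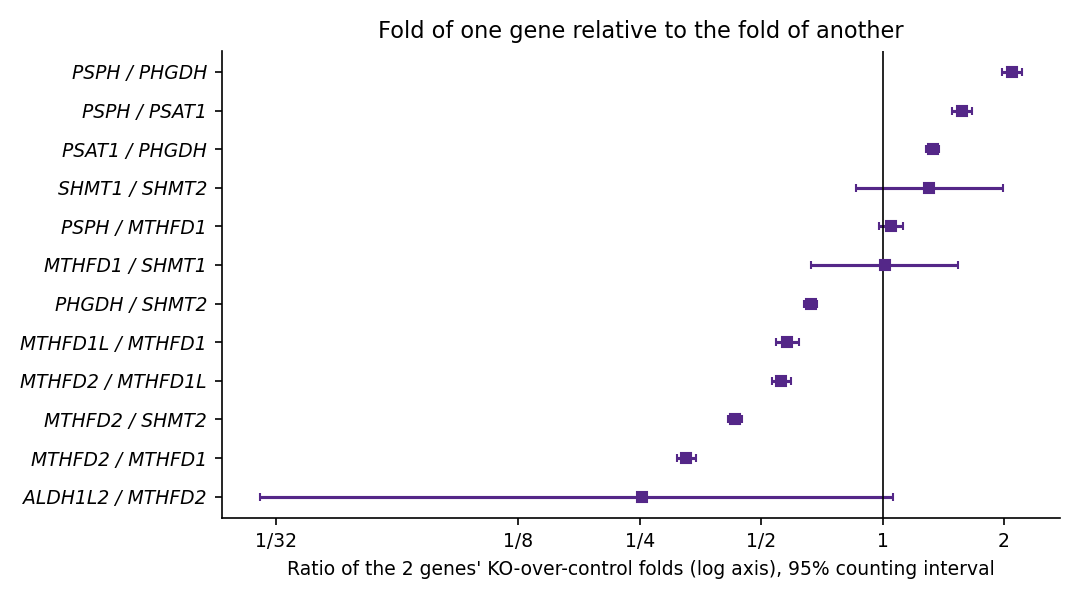
Ratio of the folds of 2 members (fold: knockout-labelled library over control) for 12 pairs, on a log axis with exact conditional 95% counting intervals. MTHFD2 relative to MTHFD1 stands at 0.326 and PSPH relative to PHGDH at 2.09, and the wide intervals belong to pairs with ALDH1L2 or SHMT1.

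Some genes next to the members overlap them, and the sources used here do not say whether counting used strand. MTHFD1 overlaps ZBTB25, which had 265 counts in the knockout-labelled library and 338 in the control. MTHFD2 overlaps SLC4A5, with 652 counts in the knockout-labelled library and 1110 in the control. Both neighbours had far fewer counts than the member they overlap, and the part of shared reads in these values was not tested.

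To rank the members, CPM was divided by transcript length in kilobases, taking for each gene the longest principal transcript of GENCODE version 29. On this scale PHGDH was the most abundant in both libraries, at 317 CPM per kilobase in the knockout-labelled library and 352 in the control. PSAT1 had 242 CPM per kilobase in the knockout-labelled library and 202 in the control, and SHMT2 had 187 in the knockout-labelled library and 138 in the control. MTHFD2 had 146 CPM per kilobase in the knockout-labelled library, below SHMT2, and 249.7 in the control, where only PHGDH was higher. PSPH, MTHFD1 and MTHFD1L followed, at 102, 79.4 and 51.5 CPM per kilobase in the knockout-labelled library and 54.0, 44.3 and 49.4 in the control. SHMT1 and ALDH1L2 were the lowest in both libraries, at 1.41 and 0.0162 CPM per kilobase in the knockout-labelled library and 0.798 and 0.109 in the control. MTHFD1 stood above MTHFD1L in the knockout-labelled library and below it in the control. The place of MTHFD2 depends on the length used, since its transcript of 4456 bases holds a coding sequence of 1050. Per kilobase of coding sequence it was the highest of the 9 in both libraries, at 620 CPM in the knockout-labelled library and 1060 CPM in the control.

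Across the whole transcriptome, 12644 genes were compared on the log2 ratio with 1 CPM added to both levels. Of these, 857 (6.78%) were at least 2-fold higher in the knockout-labelled library and 719 (5.69%) at least 2-fold lower. Of the 8 compared members, 0 were higher and 0 were lower by that much. At 1.5-fold, 2567 genes (20.3%) were higher and 1674 (13.2%) lower. Of the members, 3 were higher at that size (PSPH, MTHFD1 and SHMT1), 1 was lower (MTHFD2) and 4 lay between. SHMT1 stood at a log2 ratio of 0.59, just past the 1.5-fold line, and the next member inside it was SHMT2 at 0.44. The median log2 ratio of the 8 members was 0.35, against 0.12 for all compared genes, and 6 of the 8 were above 0, as were 7340 of the 12644.

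Single members lay at different places among the compared genes. PSPH (log2 ratio 0.91) stood at percentile 91.1 and MTHFD1 (0.84) at percentile 89.3. MTHFD2 (-0.77) stood at percentile 8.98. SHMT1 stood at percentile 80.1, SHMT2 at 71.2, PSAT1 at 59.9, MTHFD1L at 45.9 and PHGDH at 32.8. So 3 members lay near the edges of the distribution and the others were spread over its middle. The 3 other scalings tried were TMM (trimmed means), the upper quartile and median gene ratios, and they shifted log2 ratios of well-covered genes by -0.12, -0.14 and -0.16. Genes near 1 CPM shifted less because of the added 1 CPM, as SHMT1 did to 0.51, 0.49 and 0.48. The sign of MTHFD1L turned with each of them (-0.06, -0.08 and -0.10), and no other member changed sign. SHMT1 fell below the 1.5-fold line with each, which left 2 members higher. The split of all genes past 2-fold moved to 601 higher and 879 lower with TMM, 574 and 917 with the upper quartile, and 544 and 945 with the median of gene ratios.

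**Figure D3:**
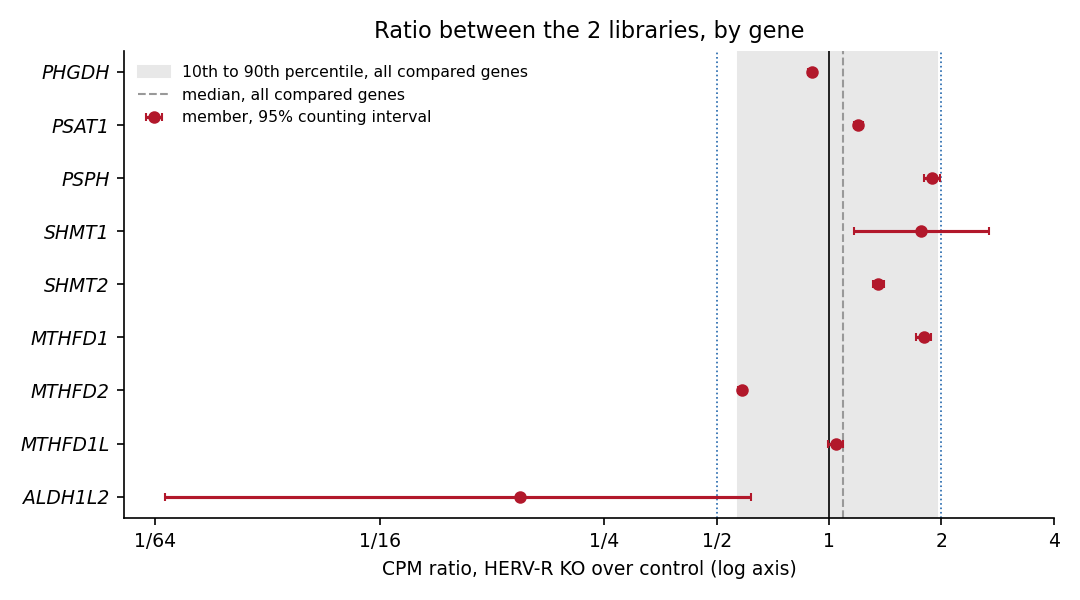
CPM ratio (knockout-labelled library divided by control) of each member, on a log axis with exact 95% counting intervals. The grey band spans the 10th to 90th percentile of the same ratio over 12644 compared genes (0.571 to 1.95), the dashed line its median (1.09) and the dotted lines 2-fold; on this scale, without the added 1 CPM, MTHFD2 lies just inside the band's lower edge and PSPH and MTHFD1 near its upper edge, all short of 2-fold.

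Beyond the members, TYMS and the purine synthesis gene PFAS were past 2-fold. Of 7 compared folate enzymes outside the 9 members, 1 stood at least 2-fold above the control, 0 as far below and 6 between, and their median log2 ratio was 0.25. TYMS, which makes thymidylate from methylene-folate, had 120 CPM in the knockout-labelled library and 52.3 CPM in the control, a ratio of 2.30 (2.14 to 2.48). It remained past 2-fold with each other scaling. Of 6 purine synthesis enzymes, 1 was higher, 0 lower and 5 between (median 0.45). The higher one was PFAS, at 80.6 CPM in the knockout-labelled library and 21.8 CPM in the control, a ratio of 3.70 (3.33 to 4.11). All 6 purine enzymes had log2 ratios above 0, from 0.26 to 1.84. Those that take formyl groups from folate, GART and ATIC, were picked with their values in view and had ratios of 1.22 and 1.37.

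Among 6 compared genes of folate uptake and storage, 0 were higher, 1 was lower and 5 lay between (median 0.37). The lower one was FOLR1, the folate receptor alpha, with 17 counts (1.04 CPM) in the knockout-labelled library and 192 (8.77 CPM) in the control, a ratio of 0.118 (0.0674 to 0.194). Of 7 compared genes of the methionine cycle and transsulfuration, 1 was higher, 0 lower and 6 between (median 0.39). MAT2A, which makes S-adenosylmethionine, had 109 CPM in the knockout-labelled library and 39.3 CPM in the control, a ratio of 2.77 (2.55 to 3.01). In the glycine cleavage system, 3 of 4 genes were compared and 0 passed in either direction (median 0.22). Its 2 most abundant genes were DLD, with 214 CPM in the knockout-labelled library and 183 CPM in the control, and GCSH, with 25.6 CPM in the knockout-labelled library and 19.8 CPM in the control.

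Of 8 compared transporters of serine and glycine, 2 were higher, 0 lower and 6 between (median 0.12). SLC1A4, a neutral amino acid exchanger that carries serine, had 298 CPM in the knockout-labelled library and 116 CPM in the control, a ratio of 2.56 (2.44 to 2.69). SFXN2, a mitochondrial sideroflexin, had 26.8 CPM in the knockout-labelled library and 7.31 CPM in the control, a ratio of 3.66 (3.05 to 4.41). SFXN1, its relative known to carry serine into mitochondria, was chosen after its values were seen and had 177.5 CPM in the knockout-labelled library and 177.0 CPM in the control. SFXN3, also chosen after its values were seen, went the other way from SFXN2. It had 39.1 CPM in the knockout-labelled library and 63.6 CPM in the control, a ratio of 0.614 (0.558 to 0.675). Of 7 compared enzymes that use serine otherwise, 0 passed in either direction (median 0.16). PTDSS1, which makes phosphatidylserine, had a ratio of 1.96 (1.84 to 2.08), and SPTLC1, a subunit of the enzyme that opens sphingolipid synthesis, 0.822 (0.770 to 0.877).

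Of the glycolysis genes, which act before and after the branch to serine, 13 were compared, and 0 were past 2-fold in either direction (median 0.40). GAPDH had 3667 CPM in the knockout-labelled library and 3031 CPM in the control, and PKM, the last glycolytic kinase, 2216 CPM in the knockout-labelled library and 1231 CPM in the control. Of 11 compared known regulators 0 passed (median 0.04). ATF4 RNA had 8841 counts (539 CPM) in the knockout-labelled library and 17620 (805 CPM) in the control, a ratio of 0.669 (0.652 to 0.687). EIF2AK1, a kinase upstream of ATF4, had a ratio of 1.03 (0.992 to 1.07). The other such kinases in the list were added with their values in view. EIF2AK2 had a ratio of 1.04 (0.997 to 1.09), EIF2AK4 0.993 (0.936 to 1.05) and EIF2AK3 0.616 (0.539 to 0.703). MYC, chosen after its values were seen, had 260 CPM in the knockout-labelled library and 154 CPM in the control (ratio 1.69; 1.61 to 1.77).

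Of 23 other known ATF4 targets, 2 were higher, 0 lower and 21 between (median 0.21). The higher ones were ATF5, a transcription factor, with a ratio of 3.46 (2.81 to 4.29), and SESN2, an inhibitor of mTORC1 signalling, with 2.68 (2.49 to 2.89). ASNS, asparagine synthetase, and DDIT4, a stress-induced inhibitor of mTORC1, were picked with their values in view and had ratios of 0.686 (0.670 to 0.703) and 0.575 (0.564 to 0.588). Both belong to the 6 targets with log2 ratios below 0, while 17 of the 23 were above 0. Several of the 17, with log2 ratios from 0.01 to 0.09, fell below 0 with each of the 3 other scalings, so this split depends on scaling. Of the 8 compared members 6 were above 0 and 2 below, and of all 12644 compared genes 7340 were above 0. Whether ATF4 bears on any of these ratios was not tested.

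**Figure D4:**
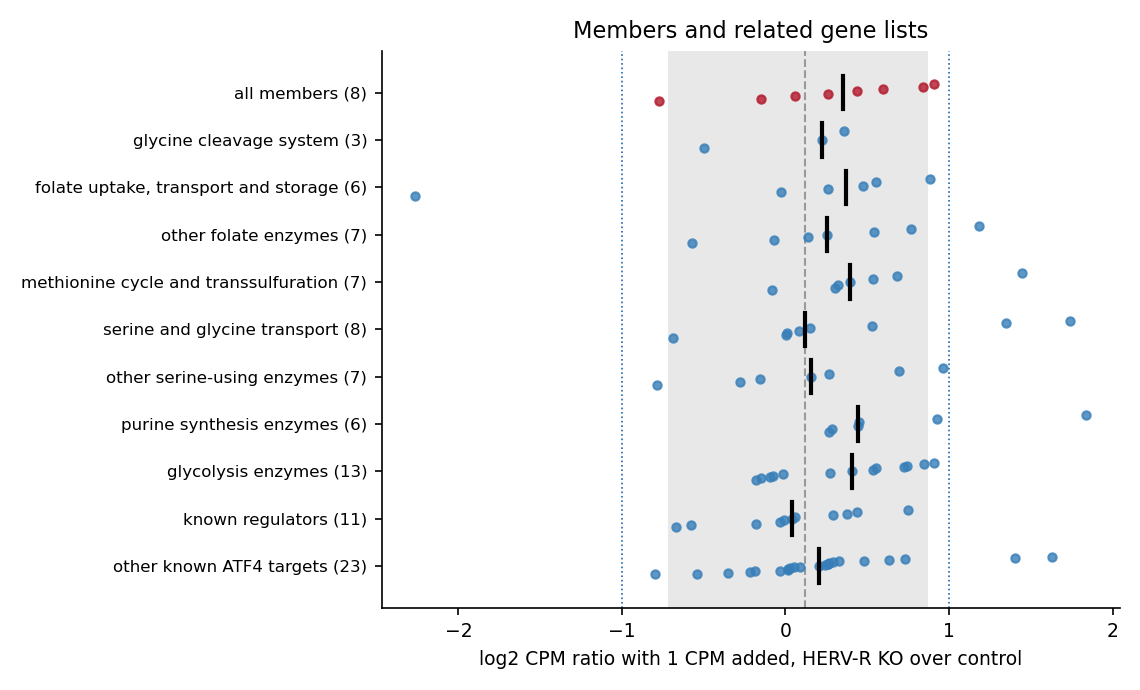
Log2 CPM ratio with 1 CPM added (knockout-labelled library over control) of each compared gene in the member list (red) and 10 related lists (blue), with the number of compared genes in parentheses and the list median as a black bar. The grey band spans the 10th to 90th percentile of 12644 compared genes (-0.72 to 0.86). The dashed line is their median (0.12) and dotted lines mark 2-fold. No member passes a dotted line, nor does any gene of the glycine cleavage, other serine-using, glycolysis or known regulator lists. Single genes of the remaining lists do, with FOLR1 the lowest at -2.26.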

How the data were processed

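RNA was measured in 1 library of DLD1 cells labelled HERV-R knockout and 1 control library. The authors deposited raw whole-number counts per gene row, 58173 rows in each table. TopHat and the build GRCh38 are named for the alignment, per the submitters' processing notes; the sources used here give no version, counting program, annotation or strand setting. Rows of 1 symbol were summed and counts divided by the library total (CPM). The log2 ratio had 1 CPM added to both levels, and a gene entered the comparison at a mean of 1 CPM or more. Ratios without it carry 95% Clopper-Pearson intervals, given the sum of both counts, and ratios of folds the exact conditional interval of an odds ratio. Reads copied by PCR are not separate molecules, and the intervals cover counting error only. No p-value is given, as each group has 1 library. The calculation was tested on simulated data.

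The members and the 10 related lists were chosen with earlier results of these data known. Text names every member, list genes past 2-fold (at most the 4 furthest from 0) or, where none passed, the 2 most abundant. Outside this rule it also names GART, ATIC, SFXN1, SFXN3, MYC, EIF2AK2, EIF2AK3, EIF2AK4, ASNS and DDIT4, picked with their values in view. ALDH1L1 is named as the counterpart of ALDH1L2. A gene of the folate enzyme list is not reported here and was left out of that list's counts. Alternatives used edgeR 4.0.16 (TMM, upper quartile) and DESeq2 1.42.0 size factors in R 4.3.3, other pseudocounts, minimum levels and fold rules. Python 3.11.15 with scipy 1.17.1 did the rest. Positions and promoters are RefSeq's (GRCh38.p14).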

Additional observations from a re-analysis of the deposited data

How the results depend on the processing

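With 1 library per group no replicate could be left out. No paired analysis was possible because each group has 1 library. Members past 2-fold numbered 0 in each direction under a pseudocount of 0.1 CPM, all 3 other scalings and no filter. The number was also 0 with a pseudocount of 5 CPM, a minimum mean of 5 CPM and a 3-fold rule. These last settings can only remove members from a count, so from 0 they could give no other result. A 1.5-fold rule gave 3 higher and 1 lower. The number at least 1.5-fold higher was 2, without SHMT1, with a pseudocount of 5, where SHMT1 stood at 0.28, with a minimum mean of 5 CPM and with each other scaling. Without a filter ALDH1L2 joined MTHFD2, so 2 members were at least 1.5-fold lower. At 0.823 CPM in the control, ALDH1L2 cannot pass 2-fold lower once 1 CPM is added, so that outcome was fixed beforehand. Its ratio without the added CPM was 0.148. With 0.1 CPM added its log2 ratio was -2.06, but there the minimum level leaves it out of the count. The members' median log2 ratio was 0.35, against 0.21 with the upper quartile and 0.19 with the median of gene ratios. These 2 scalings shifted all well-covered genes alike, by -0.14 and -0.16. The median of all compared genes, 0.12 with library totals, therefore falls with them. Using only symbols on 1 row was an alternative chosen after seeing the data, and it leaves out SHMT1. The members' median was then 0.26, with 2 members at least 1.5-fold higher and 1 lower. Over all genes, 426 were at least 2-fold higher and 371 lower with a pseudocount of 5, 544 were higher with the median of gene ratios, 2567 were higher and 1674 lower by 1.5-fold, and 118 and 229 by 3-fold. FOLR1 drops out with a minimum mean of 5 CPM. With pseudogene rows added, the fold of PSPH was 1.48 times that of PSAT1 and 1.97 times that of PHGDH. Depth limits ALDH1L2 and SHMT1 most.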

Other observations

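The genes around the members were looked at after the data had been seen, within 1 Mb on either side. Only MTHFD2, PSPH and MTHFD1 are given, the compared members with log2 ratios furthest from 0. Their distance from the neighbours therefore follows in part from that choice. MTHFD2, at a log2 ratio of -0.77, was lower than each of its 36 compared neighbours on chromosome 2, which ran from -0.76 to 1.27 with a median of 0.28, and 27 of them were above 0. PSPH (0.91) had 11 compared neighbours on chromosome 7 with a median of 0.17 and a range from -0.63 to 1.26. The nearest of these, CCT6A, a subunit of the cytosolic chaperonin, begins at 56051765, close to the end of PSPH at 56051444. It had 9543 counts (582 CPM) in the knockout-labelled library and 7889 (361 CPM) in the control, a ratio of 1.61 (1.57 to 1.66). MTHFD1 (0.84) had 14 compared neighbours on chromosome 14 with a median of 0.05 and a range from -0.62 to 0.91. Chromosome copy number was not measured in these libraries.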
